A study of Mus musculus with 23 samples.

Results

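The comparison set hippocampal RNA from tau-transgenic mice that carried a single working copy of Lsd1 against RNA from wild-type mice, both at 9 months of age. The libraries were taken by their titles: 4 labelled PS19;Lsd1Δ/+ (written PS19_Lsd1het from here on) and 4 labelled WT, together 8 of the 23 libraries of the series. All were hippocampus of C57BL/6 mice. The PS19 transgene encodes human tau with the P301S mutation and is driven by the mouse prion protein promoter, and the PS19_Lsd1het mice are labelled as carrying a deletion of their second Lsd1 allele. The WT mice had neither change. The 9-month cohort also held 4 PS19 libraries (the transgene with both Lsd1 copies) and 2 Lsd1Δ/+ libraries without the transgene (written Lsd1het). Those 6 libraries entered the fit to estimate the spread, so that 14 libraries were fitted, and are quoted only where they bear on this comparison. The labels give neither sex, nor the number of animals behind a library, nor how the deletion was made. The p-values therefore measure only the spread between these libraries, which may be technical.

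Kdm1a encodes LSD1, an enzyme that removes methyl groups from histones, works with CoREST proteins and keeps genes of other cell types silent in neurons. Mutant tau aggregates in the neurons of PS19 mice, and this is known to be followed by activation of microglia and astrocytes and by loss of hippocampal neurons. Microglia near such pathology are known to switch on a disease-associated programme (Itgax, Cst7, Clec7a), interferon-stimulated genes and complement, while reactive astrocytes raise Gfap and Vim.

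Each library held 15451494 to 24617197 reads counted on genes, and 20122 genes passed the filter on low counts. Levels are given as CPM, a gene's reads scaled to the normalised size of its library, and differences as log2 of PS19_Lsd1het over WT. Same-numbered libraries of the 2 groups deviated together (correlations of deviations 0.35 to 0.62). Only PS19_Lsd1het replicates 1 and 2 correlated best with the WT library of their own number, and no PS19_Lsd1het library did so with PS19. The replicate number was kept as a block. The first principal component, with 58.3% of the variance, placed replicates 1 and 2 of every group at 34.5 to 43.3 and replicates 3 and 4 at -21.3 to -123.2. A trio of libraries stood apart. PS19_Lsd1het replicate 2 held markers of cerebellum and brainstem. WT replicate 3 held 33.9% of its reads on mitochondrial genes, against 2.86% to 6.04% in the other 7 libraries. The library labelled PS19_Lsd1het replicate 3 had a Kdm1a level inside the WT range, so that its genotype label may be wrong. Counts of called list members moved with single libraries, and are given for fits that each left out a library where the count moved most.

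Kdm1a, the deleted gene (chr4:136550540-136602723, GRCm38), measured 51.3, 50.5, 61.0 and 57.7 CPM in WT replicates 1 to 4. It measured 34.9, 34.6, 55.9 and 44.5 CPM in PS19_Lsd1het replicates 1 to 4. The groups overlapped because of the library labelled PS19_Lsd1het replicate 3, at 55.9 CPM. The Lsd1het libraries, which share the deletion, measured 34.8 and 35.8 CPM. The difference was -0.39 (SE 0.12), with an adjusted p of 0.166 by edgeR's quasi-likelihood test and 0.026 by DESeq2. It was called by DESeq2 in 1 of 8 fits that each left out a library. That fit left out the library labelled PS19_Lsd1het replicate 3. Among the 15 tested genes of the LSD1-CoREST list, Kdm1a was the only one called. The other members, which include the CoREST proteins Rcor1 (-0.01), Rcor2 (-0.13) and Rcor3 (-0.15), passed neither test.

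Prnp, whose promoter drives the transgene (chr2:131909928-131938429), measured 651 to 908 CPM in WT and 1053 to 1856 CPM in PS19_Lsd1het, and the groups did not overlap. The difference was 1.02 (SE 0.21), with an adjusted p of 0.0915 by edgeR and 1.95e-04 by DESeq2. PS19_Lsd1het replicate 2 had the lowest Prnp level of its group, 1053 CPM against 1629, 1714 and 1856 CPM in the others. The pseudogene Lamr1-ps1, which lies ahead of Prnp on the same chromosome (chr2:131904086-131904959), had 0 reads in the 4 WT libraries and 236 reads in the 4 PS19_Lsd1het libraries, at least 77.2-fold higher with a floor of 3 reads over the WT group. It had no reads in the Lsd1het libraries and 2.18 to 4.21 CPM in the PS19 libraries. It was called by edgeR (adjusted p 0.0208). Mouse Mapt, the tau gene, measured 368 to 517 CPM in WT and 505 to 669 CPM in PS19_Lsd1het, a difference of 0.35 (SE 0.14) that passed neither test (adjusted p 0.245 by edgeR, 0.156 by DESeq2). Whether reads of the transgene were counted on Prnp or on Mapt was not tested.

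Across all genes, edgeR called 3 genes higher (0.0149% of 20122) and 1 lower (0.00497%) at an adjusted p under 0.05. These were Itgax, Ifi209 and Lamr1-ps1 higher and Gm44560, a predicted gene (chr7:59286052-59289166), lower. By an unadjusted edgeR p under 0.05 there were 3465 genes (17.2%), where 1006 would be reached by chance. The size of this excess depended on the fit. Without the replicate block, and with the same genes tested, the count was much nearer to the 1006 reached by chance. With fewer genes tested, it was also lower when only WT and PS19_Lsd1het were fitted, and within replicates 1 and 2. It was higher when PS19_Lsd1het replicate 1, 2 or 4 was left out. DESeq2 with the same block called 532 genes higher (2.64%) and 340 lower (1.69%). Gfap, Cst7, Fgr, Cxcl10, Fcgr2b and Zbp1 all had an edgeR adjusted p of 0.0568. Other leading genes were further from the threshold by edgeR, such as Cxcl13 (adjusted p 0.0807), Cd74 (0.0918) and Ifi44l (0.107). Why the tools differed was not tested. Libraries of the 2 groups did not overlap for 702 genes higher (3.49%) and 181 lower (0.9%). The median difference of all genes was 0.03. Without the block, edgeR called 1 gene higher and DESeq2 106 higher and 4 lower. Without PS19_Lsd1het replicate 2, DESeq2 called 382 higher (1.92%) and 334 lower (1.68%), of which 323 and 192 were calls of all libraries. Without WT replicate 3 it called 235 higher (1.17%) and 75 lower (0.375%), and without the library labelled PS19_Lsd1het replicate 3, 224 higher (1.12%) and 155 lower (0.773%). Below, a gene is said to be called where DESeq2 with the block, or edgeR, gave an adjusted p under 0.05.

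**Figure D1:**
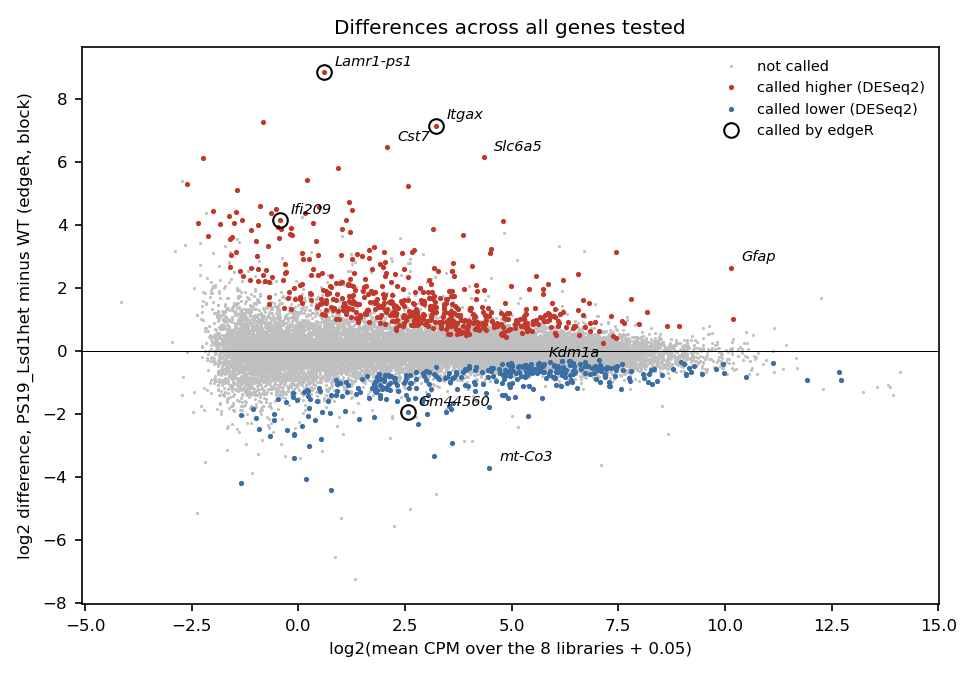
Log2 difference between PS19_Lsd1het and WT (y axis, edgeR with block) against the log2 of the mean CPM over the 8 libraries plus 0.05 (x axis), 1 point per gene. Red points are the 532 genes called higher and blue points the 340 called lower by DESeq2, open circles the 4 genes called by edgeR, and grey points the rest; the rises reach larger differences than the falls.

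The largest rises were in genes of microglia and other immune cells. Itgax, the CD11c integrin that marks disease-associated microglia (chr7:128129547-128150657), measured 0.0927, 0.249, 0.0973 and 0.121 CPM in WT and 13.7, 13.7, 13.8 and 32.4 CPM in PS19_Lsd1het. Every PS19_Lsd1het library was above every WT library, and replicate 4 stood above the other 3 of its group. The difference was 7.17 (SE 0.81), with an adjusted p of 0.0208 by edgeR and 1.84e-17 by DESeq2. Cst7, a cystatin that inhibits lysosomal cathepsins (chr2:150570415-150578944), measured 0 to 0.166 CPM in WT and 8.19, 6.24, 12.3 and 6.00 CPM in PS19_Lsd1het (difference 6.48, SE 0.96). Its adjusted p was 0.0568 by edgeR and 4.27e-10 by DESeq2. Clec7a, the beta-glucan receptor Dectin-1, measured 0.139 to 0.487 CPM in WT and 6.62, 7.51, 15.2 and 16.1 CPM in PS19_Lsd1het, a difference of 5.25 (SE 0.80). These 3 genes were close to 0 in WT, and their groups were separated by more than the whole WT range.

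DESeq2 called 344 genes higher that reached 1 CPM in a group and whose libraries did not overlap. The 15 largest rises were taken from the 330 of them that are neither predicted genes nor annotated as pseudogenes. Clec7a, which the annotation classes as a polymorphic pseudogene, was left out on that ground, although its difference was larger than most of the 15. Beside Itgax and Cst7 they were, in falling order of difference, Cxcl13, Fgr, Cd22, Ccl3, Cxcl10, Lcn2, Tnfsf8, Ifi209, Ly9, Cd74, Mx1, Ccl12 and Ifi44l. Cxcl13, a chemokine that attracts B cells, measured 0 to 0.125 CPM in WT and 3.38, 1.02, 7.5 and 2.73 CPM in PS19_Lsd1het (difference 5.81, SE 1.07). Fgr, a Src-family kinase of myeloid cells, measured 0 to 0.121 CPM in WT and 2.22, 1.63, 1.69 and 3.09 CPM in PS19_Lsd1het (difference 5.43, SE 0.78). Cd22, a sialic acid-binding receptor of B cells and aged microglia, measured 0.0463 to 0.166 CPM in WT and 1.80, 1.89, 2.54 and 4.06 CPM in PS19_Lsd1het (difference 4.58, SE 0.88). Ly9, a receptor of the SLAM family, was the most even of these genes, with 3.84, 4.02, 3.93 and 4.00 CPM in PS19_Lsd1het against 0.166 to 0.485 CPM in WT (difference 4.16, SE 0.67). Each of the 15 was called in all 8 DESeq2 fits that left out a library. Adjusted p over those fits reached at most 0.0487, for Ifi44l. Because many of these genes were near 0 in WT, their fold changes rest on a few WT reads.

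**Figure D2:**
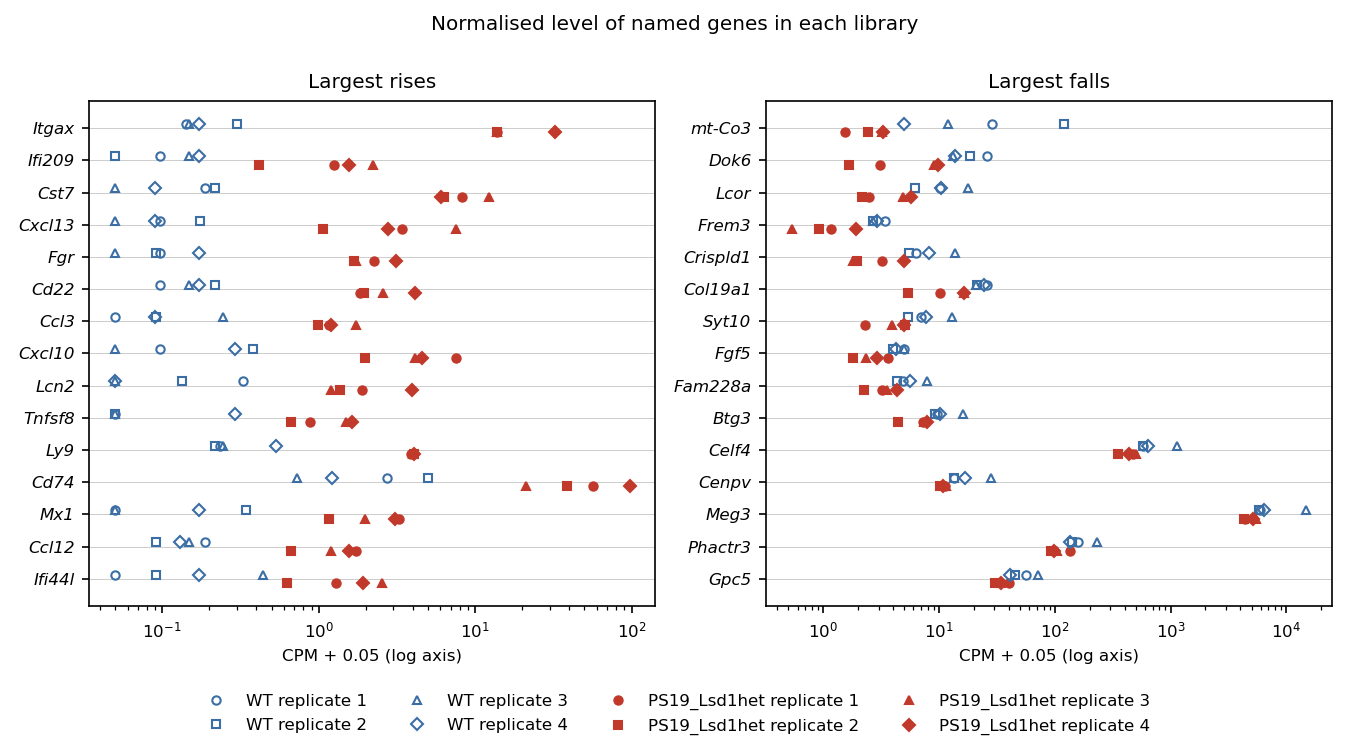
Level in each library (CPM plus 0.05, log axis) of the 15 largest rises (left) and the 15 largest falls (right), with WT libraries as open blue and PS19_Lsd1het libraries as filled red symbols and the symbol shape giving the replicate number. The rises are separated widely on the log axis, while the falls lie close together and WT replicate 3 is often the highest.

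Of the 33 genes of the disease-associated microglia list, 29 were higher and 25 were called higher (75.8%, against 2.64% of all genes), with none called lower and a median difference of 1.69 against 0.03 for all genes. Trem2 and Tyrobp, the receptor and adaptor through which microglia enter this state, were both called. Trem2 measured 3.02 to 14.9 CPM in WT and 24.5 to 40.0 CPM in PS19_Lsd1het (difference 1.96, DESeq2 adjusted p 0.00128). Tyrobp measured 5.37 to 7.04 CPM in WT and 16.4 to 29.8 CPM in PS19_Lsd1het (difference 1.97, DESeq2 adjusted p 5.69e-04). Gpnmb, a lysosomal glycoprotein, measured 5.42, 4.40, 3.21 and 3.03 CPM in WT and 18.8, 22.0, 15.2 and 28.4 CPM in PS19_Lsd1het (difference 2.38, SE 0.39). Apoe, the lipid carrier of the same programme, was at 554 to 2053 CPM in WT and 1234 to 2465 CPM in PS19_Lsd1het, overlapped and was not called (difference 0.51, DESeq2 adjusted p 0.109). Lpl (-0.54), Fabp5 (-0.36), Igf1 (-0.18) and Hif1a (-0.00) were not higher. The programme was therefore not raised in every member. The median was 1.67 without PS19_Lsd1het replicate 2, 1.34 without the library labelled replicate 3 and 1.74 without WT replicate 3, with 20 or 21 members called in each case. Leaving out each library in turn gave 18 to 24 called, the fewest without WT replicate 4. Trem2, Tyrobp, Apoe and the other list members given with fewer values were picked after their values were seen.

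Genes that mark resting microglia moved less. In the homeostatic microglia list, 15 of 17 were higher, with a median of 0.62 and 3 called (17.6%, against 2.64% of all genes). Csf1r, the receptor on which microglia depend, measured 30.6 to 83.8 CPM in WT and 101 to 159 CPM in PS19_Lsd1het (difference 1.16, SE 0.32, DESeq2 adjusted p 0.0179). Aif1, the cytoskeletal protein IBA1, measured 2.99 to 5.89 CPM in WT and 4.35 to 10.2 CPM in PS19_Lsd1het and overlapped (difference 0.84, DESeq2 adjusted p 0.0253). P2ry12, the purinergic receptor of resting microglia, was lower in value (-0.50) and not called. No member of this list was called without WT replicate 1, 3 or 4. None was called without the library labelled PS19_Lsd1het replicate 3 either, where the median was 0.28. In bulk tissue, more cells of a type and more RNA per cell cannot be told apart.

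All 34 genes of the interferon response list were higher, 28 of them called (82.4%), with a median difference of 2.05. Their summed level was 95.1, 122, 122 and 122 CPM in WT and 348, 271, 291 and 272 CPM in PS19_Lsd1het. Type I and II interferons act through STAT and IRF factors, which bind an interferon-stimulated response element in the promoters of such genes. Cxcl10, a chemokine that attracts T cells (chr5:92346638-92348889), measured 0.0463, 0.332, 0 and 0.242 CPM in WT and 7.54, 1.92, 4.05 and 4.54 CPM in PS19_Lsd1het. Replicate 2 was the lowest of the PS19_Lsd1het libraries and still above every WT library. The difference was 4.48 (SE 0.64), with an adjusted p of 0.0568 by edgeR and 3.13e-08 by DESeq2. Ifit3, which blocks viral RNA (chr19:34583531-34588731), measured 1.99, 1.66, 5.25 and 4.2 CPM in WT and 15.6, 8.27, 18.3 and 13.3 CPM in PS19_Lsd1het (difference 2.14, SE 0.37).

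The promoters of these genes hold the element to different degrees. In RefSeq promoter windows (GRCm38.p6, 300 bases, from 250 before to 50 after the start), the interferon-stimulated response element, searched on both strands as GAAA, any 2 bases and GAAA, was in 16 of the 25 interferon list genes with a window (64.0%). It was in 3.67% of all tested genes with a window, in 40 of 399 such genes called higher and in 1.09% of genes called lower. Among genes called higher outside the interferon list the share was 6.86%. A second motif, the interferon-gamma activated site TTCNNNGAA, was in 16.0% of the interferon list, 10.3% of genes called higher, 4.92% of genes called lower and 8.27% of tested genes. The 2 motifs can overlap. A match is a description of these letters, not a shown binding site. The windows of 2 called members are printed to show the element, in capitals. That of Cxcl10 (chr5:92348840-92349139, minus strand) holds 1 copy, which begins 213 bases before the start. That of Ifit3 (chr19:34583279-34583578, plus strand) holds 2 copies on the opposite strand.
Cxcl10: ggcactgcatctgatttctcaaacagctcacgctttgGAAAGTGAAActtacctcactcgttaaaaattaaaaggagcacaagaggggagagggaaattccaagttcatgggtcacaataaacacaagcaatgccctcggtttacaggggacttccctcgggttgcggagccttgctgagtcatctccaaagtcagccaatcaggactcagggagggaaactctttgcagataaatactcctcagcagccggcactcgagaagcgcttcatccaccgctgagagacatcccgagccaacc
Ifit3: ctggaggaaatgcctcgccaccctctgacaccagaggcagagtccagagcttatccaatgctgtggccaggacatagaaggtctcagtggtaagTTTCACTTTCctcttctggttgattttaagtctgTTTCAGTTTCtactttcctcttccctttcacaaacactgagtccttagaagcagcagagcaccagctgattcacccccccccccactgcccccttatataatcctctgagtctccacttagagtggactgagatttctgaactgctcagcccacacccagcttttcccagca
The windows of Itgax, Cst7, Gfap and Ifi209 held no copy, and neither did that of Ifi44, a member of the interferon list.

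Within the interferon list the size of the rise differed. Ifi44 measured 0.415 to 1.07 CPM in WT and 5.64, 2.79, 7.93 and 8.0 CPM in PS19_Lsd1het (difference 3.31, SE 0.59). Zbp1, a sensor of Z-form nucleic acid, measured 0 to 0.139 CPM in WT and 1.62, 0.435, 1.69 and 1.58 CPM in PS19_Lsd1het (difference 3.88, SE 0.54). Mx1, an antiviral GTPase, measured 0 to 0.291 CPM in WT and 1.12 to 3.19 CPM in PS19_Lsd1het (difference 4.09, SE 0.76). Ifi209, a member of the interferon-induced p200 family that is not in the list (chr1:173630917-173647928), measured 0 to 0.121 CPM in WT and 1.20, 0.363, 2.18 and 1.51 CPM in PS19_Lsd1het. Its difference was 4.16 (SE 0.44), called by edgeR (adjusted p 0.0208) and by DESeq2 (9.13e-06). For Cxcl10, Ifi44, Zbp1, Mx1 and Ifi209, PS19_Lsd1het replicate 2 was the lowest library of its group. The signalling factors themselves differed less, with Stat2 higher by 0.76 and called and Irf9 by 0.65 and not called. Irf7, the factor that amplifies the response, was higher by 2.83 and called. The list median was 1.93 without PS19_Lsd1het replicate 2 and 1.80 without the library labelled replicate 3, with 23 and 19 members called. Without WT replicate 1 it was 1.71, with 17 members called, the fewest of the 8 fits.

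Complement, the cascade that tags synapses and debris, and Fc receptors were higher in all 21 genes of their list, with a median of 1.55 and 13 called (61.9%). C4b (chr17:34728380-34743882) measured 43.1, 46.7, 10.1 and 55.8 CPM in WT and 364, 182, 327 and 375 CPM in PS19_Lsd1het. The groups were far apart, and WT replicate 3 was the lowest library. The difference was 3.15 (SE 0.56), and 2.73 without WT replicate 3, with a DESeq2 adjusted p of 1.04e-07 with all libraries. The initiating subunits C1qa (2.27), C1qb (1.82) and C1qc (1.99) and the central component C3 (3.71) were called too. C3ar1, the receptor of the C3a fragment, measured 0.997 to 2.43 CPM in WT and 5.80 to 11.3 CPM in PS19_Lsd1het (difference 2.47, SE 0.45). Fcgr2b, the inhibitory IgG receptor, measured 2.55, 1.49, 4.67 and 2.79 CPM in WT and 11.5, 6.06, 12.6 and 15.9 CPM in PS19_Lsd1het (difference 2.02, SE 0.29, edgeR adjusted p 0.0568). Fcgr4, an activating IgG receptor, measured 0 to 0.0973 CPM in WT and 0.580 to 1.20 CPM in PS19_Lsd1het (difference 4.62, SE 0.72). Itgam, the CR3 subunit that microglia hold at rest, differed by 0.32 and was not called. Leaving out each library in turn gave 10 to 13 called members.

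Antigen presentation was higher in all 19 genes of its list, with a median of 1.58 and 14 called (73.7%). Cd74, which chaperones MHC class II molecules, measured 2.69, 4.98, 0.681 and 1.17 CPM in WT and 57.0, 38.4, 21 and 97.1 CPM in PS19_Lsd1het (difference 4.14, SE 0.85). The class II chains moved with it. H2-Aa measured 0.389 to 1.29 CPM in WT and 10.7, 9.43, 7.93 and 39.8 CPM in PS19_Lsd1het (difference 3.90, SE 0.78). H2-Eb1 measured 0.487 to 1.45 CPM in WT and 11.2, 8.41, 3.99 and 24.1 CPM in PS19_Lsd1het (difference 3.22, SE 0.63). H2-Ab1 measured 0.389 to 1.91 CPM in WT and 13.7, 10.9, 3.63 and 17.8 CPM in PS19_Lsd1het (difference 3.17, SE 0.66). For all 4 class II genes replicate 4 was the highest and the library labelled replicate 3 the lowest of the group. The class I heavy chains H2-D1 (2.14) and H2-K1 (1.98) were called, while B2m, their light chain (0.96), was not, with 146 CPM in WT replicate 3 against 31.1 to 51.1 CPM in the other WT libraries. Without the library labelled PS19_Lsd1het replicate 3 the list median was 1.24 and 7 members were called. Without WT replicate 1 there were also 7, and without WT replicate 3 or 4 there were 9.

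The lysosome and phagocytosis list was higher in all 20 members, with a median of 0.78 and 9 called (45.0%). Ctss, a cathepsin of antigen-presenting cells, measured 45.1, 41.7, 52.0 and 57.1 CPM in WT and 153, 106, 172 and 187 CPM in PS19_Lsd1het (difference 1.62, SE 0.30, DESeq2 adjusted p 7.11e-05). Ctsh, another cathepsin, was even within each group, at 5.74 to 8.89 CPM in WT and 18.2 to 19.2 CPM in PS19_Lsd1het (difference 1.38, SE 0.34). Lgmn, a lysosomal asparagine protease, measured 68.4 to 86.4 CPM in WT and 124 to 143 CPM in PS19_Lsd1het (difference 0.77, SE 0.17). Npc2, which carries cholesterol out of lysosomes, measured 18.2 to 54.9 CPM in WT and 73.7 to 88.9 CPM in PS19_Lsd1het (difference 1.09, SE 0.26). The calls of Ctsh and Lgmn held in 5 of 8 DESeq2 fits that left out a library and that of Npc2 in 7. Without WT replicate 3, or without the library labelled PS19_Lsd1het replicate 3, 4 members of the list were called, and without WT replicate 1 or 4 there were 3.

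Cytokines and chemokines split. Of 18 tested genes 16 were higher, 6 of them called (33.3%, against 2.64% of all genes), with a median of 1.10. The count of called members was 3 without WT replicate 1, 4 without WT replicate 4 or PS19_Lsd1het replicate 1, 2 or 3, and 5 to 7 in the other 3 fits. Beside Cxcl13, the called members were Il1rn, Ccl2, Ccl5, Ccl12 and Cxcl16. Ccl12, a chemokine for monocytes, measured 0.0415 to 0.139 CPM in WT and 1.67, 0.616, 1.15 and 1.51 CPM in PS19_Lsd1het (difference 3.94, SE 0.70). Ccl5, which attracts T cells, measured 0 to 0.121 CPM in WT and 0.972, 0.254, 0.363 and 1.09 CPM in PS19_Lsd1het (difference 4.18, SE 0.77). Ccl3, counted with the disease-associated list, measured 0 to 0.195 CPM in WT and 1.11, 0.943, 1.69 and 1.15 CPM in PS19_Lsd1het (difference 4.52, SE 0.76). The interleukins Il1a (1.28) and Il1b (1.16) and the inflammasome sensor Nlrp3 (1.32) were higher in value and not called. Il18 (-0.32) and Cx3cl1 (-0.10) were lower in value and not called. Of 18 T cell genes only 8 passed the filter on low counts, and Ccl5 was the only one called. It was called in 6 of the 7 DESeq2 fits without a library in which it passed the filter.

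Reactive astrocyte genes were higher in 25 of 27, with a median of 1.63 and 19 called (70.4%), and 14 to 20 when each library was left out in turn, the fewest without WT replicate 1. Gfap, the intermediate filament of reactive astrocytes (chr11:102887336-102900912), measured 390, 323, 216 and 317 CPM in WT and 2580, 1544, 1961 and 1687 CPM in PS19_Lsd1het. The lowest PS19_Lsd1het library was above 3 times the highest WT library. The difference was 2.66 (SE 0.40), with an adjusted p of 0.0568 by edgeR and 2.40e-09 by DESeq2, and 2.68 without PS19_Lsd1het replicate 2. Vim, a second intermediate filament, measured 25.1 to 36.3 CPM in WT and 144 to 183 CPM in PS19_Lsd1het (difference 2.46, DESeq2 adjusted p 6.25e-06). Tgm1, a transglutaminase, measured 0.0973 to 0.463 CPM in WT and 5.51, 2.97, 4.54 and 4.00 CPM in PS19_Lsd1het (difference 3.78, SE 0.64). Ggta1, a galactosyltransferase, measured 3.03 to 4.96 CPM in WT and 15.0, 8.67, 15.4 and 16.5 CPM in PS19_Lsd1het (difference 1.77, SE 0.30). Lcn2, a secreted iron-siderophore binder, measured 0 to 0.278 CPM in WT and 1.85, 1.31, 1.15 and 3.88 CPM in PS19_Lsd1het (difference 4.40, SE 0.85). Astrocyte core genes, which mark the cell type and not its reaction, were higher in 14 of 17 with a median of 0.21 and none called. The water channel Aqp4 measured 106 to 286 CPM in WT and 216 to 399 CPM in PS19_Lsd1het (difference 0.90, DESeq2 adjusted p 0.0637).

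Oligodendrocyte and myelin genes were higher in all 18 members by a smaller amount, with a median of 0.43 and 6 called (33.3%). Myrf, the transcription factor of myelination, measured 74.1, 85.4, 37.8 and 66.6 CPM in WT and 130, 125, 93.2 and 82.6 CPM in PS19_Lsd1het (difference 0.73, SE 0.17, DESeq2 adjusted p 0.00749). Mog, a myelin surface protein, measured 27.7 to 37.0 CPM in WT and 45.9 to 62.0 CPM in PS19_Lsd1het (difference 0.68, SE 0.16, DESeq2 adjusted p 0.0187). Cldn11, the tight-junction protein of myelin, measured 88.3 to 126 CPM in WT and 124 to 181 CPM in PS19_Lsd1het and overlapped by a small margin (difference 0.65, SE 0.18). Without PS19_Lsd1het replicate 2 the median was 0.29 and 1 member was called. Leaving out WT replicate 3 or the library labelled PS19_Lsd1het replicate 3 also left 1 call, with medians of 0.50 and 0.44, there were 3 without WT replicate 2, and without WT replicate 1 no member was called. Among 16 endothelial genes, Vwf, the clotting factor carrier, measured 3.99 to 15.1 CPM in WT and 15.6 to 26.4 CPM in PS19_Lsd1het (difference 1.07, SE 0.26), and Ly6c1 was called as well. The low Vwf value was that of WT replicate 3 alone, with 13.5 CPM the next. No endothelial gene was called without WT replicate 1, WT replicate 3 or the library labelled PS19_Lsd1het replicate 3, and 1 was called without WT replicate 4 or PS19_Lsd1het replicate 4. The list median was 0.26, and the 2 called members were 12.5% of the list, against 2.64% of all genes.

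**Figure D3:**
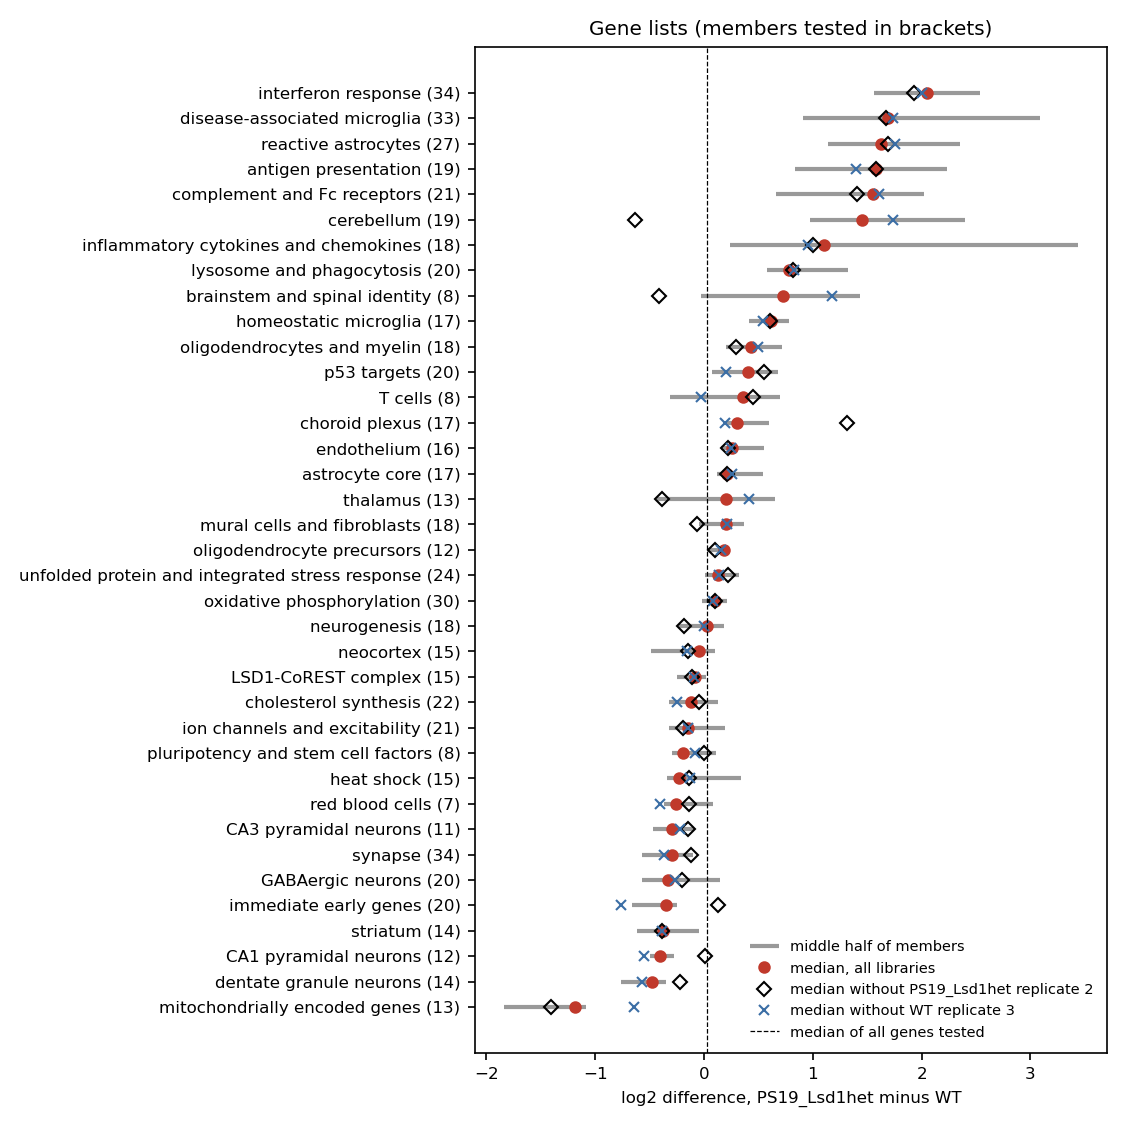
Median log2 difference between PS19_Lsd1het and WT of 37 gene lists (red points) with the span between the lower and upper quartiles of members (grey bars), the median without PS19_Lsd1het replicate 2 (diamonds) and without WT replicate 3 (crosses), and the median of all genes as a dashed line. Interferon, microglial, complement, antigen presentation and astrocyte lists stay near the same place in all 3 fits, while the cerebellum list goes from 1.45 to -0.63 and the brainstem list from 0.73 to -0.41 without PS19_Lsd1het replicate 2.

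Genes called lower were of another kind. Of the 340, 41 had libraries that did not overlap, against 372 of the 532 called higher. Over all 20122 genes tested it was 883, in either direction. WT replicate 3 was the highest WT library for 324 of the 340 (95.3%, against 39.4% of all genes). Their median gene span was 44.0 kb, against 17.3 kb for all genes and 15.9 kb for genes called higher. Transcripts of unconfirmed coding status (TEC in the annotation) made up 15.9% of the genes called lower, 4.45% of all genes and 0.376% of genes called higher. TEC genes summed to 5029 CPM in WT replicate 3 and to 1114 to 2571 CPM in the other 7 libraries. Relative to the mean of the 8 libraries, the genes called lower had a median level of 1.26 in WT replicate 3, -0.05, -0.24 and 0.46 in WT replicates 1, 2 and 4, and -0.66, -0.91, 0.14 and -0.03 in the PS19_Lsd1het libraries. The calls chose these genes, so the levels in the 8 libraries are a description. PS19 replicate 3, with 16.1% mitochondrial reads, shared the fit and the replicate number with WT replicate 3, so its level is a description too. In it the genes called lower stood at 0.66, above the other PS19 libraries at -0.66, -0.41 and 0.21. Without WT replicate 3, DESeq2 called 75 genes lower, 74 of them among the 340. For genes called higher, WT replicate 3 was the lowest WT library at -1.13 against -0.55 to -0.32 in the others, and 221 of the 532 stayed called without it. The part of the mitochondrial share or of gene length in these differences was not tested.

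**Figure D4:**
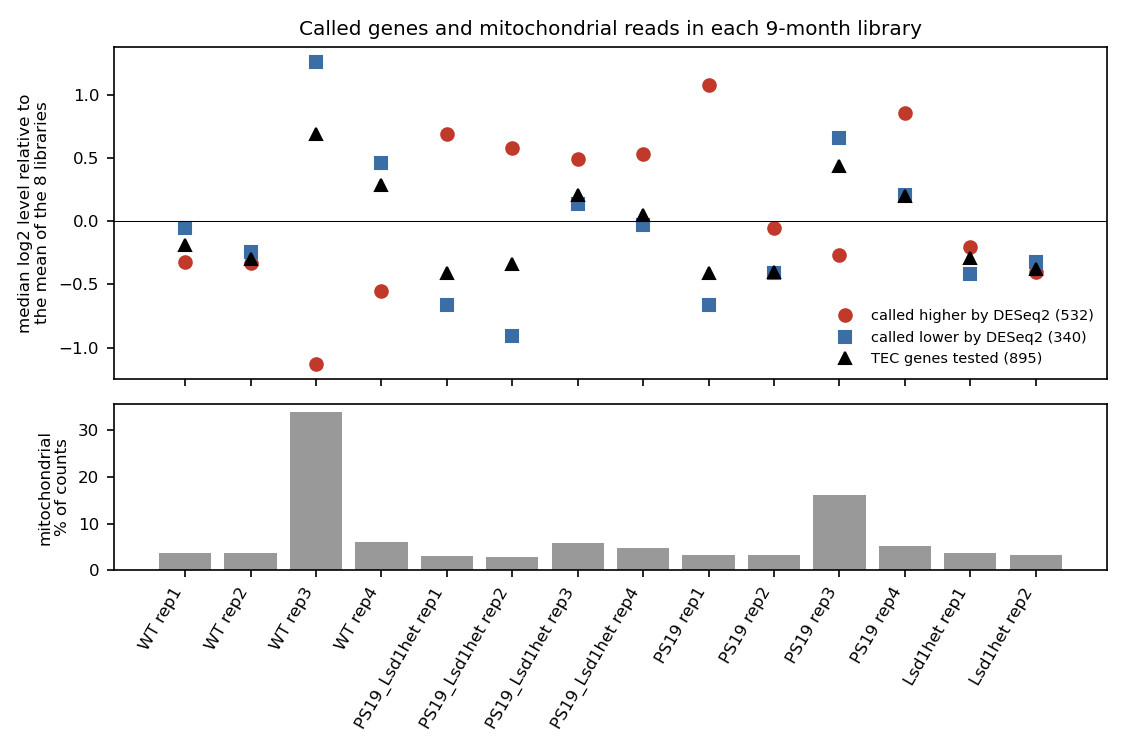
Upper panel, the median log2 level of the 532 genes called higher (red circles), the 340 called lower (blue squares) and 895 TEC genes (black triangles) in each 9-month library, relative to each gene's mean over the 8 compared libraries. Lower panel, the percent of counted reads on mitochondrial genes (bars from 0), highest in WT replicate 3 at 33.9% and PS19 replicate 3 at 16.1%, the libraries in which the genes called lower stand highest.

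The 15 largest falls were taken from the 21 genes with annotated names among 38 that DESeq2 called lower, that reached 1 CPM and whose libraries did not overlap. They were mt-Co3, Dok6, Lcor, Frem3, Crispld1, Col19a1, Syt10, Fgf5, Fam228a, Btg3, Celf4, Cenpv, Meg3, Phactr3 and Gpc5. All but mt-Co3 fell by less than 2 log2 units, and edgeR called none of them. Lcor, a corepressor of nuclear receptors (chr19:41482637-41562261), measured 10.1, 6.10, 17.8 and 10.4 CPM in WT and 2.41, 2.1, 4.84 and 5.69 CPM in PS19_Lsd1het. The highest PS19_Lsd1het library was just under the lowest WT library. The difference was -1.61 (SE 0.27), with an adjusted p of 0.0779 by edgeR and 3.02e-06 by DESeq2, and it was called in all 8 DESeq2 fits that left out a library. Dok6, an adaptor of neurotrophin receptors, measured 26.1, 18.3, 13.1 and 13.7 CPM in WT and 3.01, 1.63, 8.96 and 9.81 CPM in PS19_Lsd1het (difference -1.84, SE 0.52, DESeq2 adjusted p 0.00546). Col19a1, a collagen made by interneurons, measured 26.0, 21, 20.6 and 24.4 CPM in WT and 10.2, 5.37, 16.2 and 16.4 CPM in PS19_Lsd1het (difference -1.04, SE 0.27). Dok6 and Col19a1 were called in 7 of 8 such fits. Without the replicate block, 3 of the 340 genes called lower stayed called by DESeq2, among them mt-Co3 (adjusted p 3.62e-05) and Frem3 (0.0436). In that fit Lcor (0.0663), Dok6 (0.0825) and Col19a1 (0.178) did not pass.

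The remaining falls leaned more on single libraries. Celf4, a neuronal RNA-binding protein, measured 580, 575, 1147 and 635 CPM in WT and 469, 351, 506 and 434 CPM in PS19_Lsd1het (difference -0.67, SE 0.18, DESeq2 adjusted p 0.0115, and 0.103 without WT replicate 3). Meg3, an imprinted noncoding RNA abundant in neurons, measured 5921, 5809, 14864 and 6435 CPM in WT and 4422, 4348, 5422 and 5133 CPM in PS19_Lsd1het (difference -0.64, SE 0.22, DESeq2 adjusted p 0.0436, and 0.248 without WT replicate 3). Btg3, an antiproliferative factor, measured 9.50, 9.14, 16.1 and 10.2 CPM in WT and 7.22, 4.35, 7.32 and 7.75 CPM in PS19_Lsd1het (difference -0.73, DESeq2 adjusted p 0.00581, and 0.0758 without WT replicate 3). In these 3 genes WT replicate 3 was far above the other WT libraries. The calls of Frem3, Fgf5, Fam228a and Cenpv held in 2 of 8 fits that left out a library. mt-Co3, a cytochrome oxidase subunit of the mitochondrial genome, measured 28.8, 121, 11.9 and 4.97 CPM in WT and 1.48, 2.39, 3.15 and 3.21 CPM in PS19_Lsd1het (difference -3.69, SE 0.91). Mitochondrial genes have near-identical nuclear copies, so how its reads were shared out is uncertain. The WT value came mostly from replicate 2, not from the library with the most mitochondrial reads.

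All 13 mitochondrially encoded genes were lower in value, with a median of -1.19, and mt-Co3 was the only one called. Without PS19_Lsd1het replicate 1, 8 were called lower, and in the other fits that left out a library 1 to 3. Their summed level was 479699 CPM in WT replicate 3, 30047 to 48098 CPM in the other WT libraries and 22570 to 43289 CPM in PS19_Lsd1het. Without WT replicate 3 the median was -0.64, and without the library labelled PS19_Lsd1het replicate 3 it was -0.59. The nuclear-encoded oxidative phosphorylation list, by contrast, had a median of 0.10 with none called.

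Neuronal lists were lower in value, with few calls. In the synapse list 29 of 34 were lower, the median was -0.29 and 3 were called lower, where 1.69% of all genes were called lower. Vamp2, a vesicle SNARE protein, measured 1013, 963, 1392 and 867 CPM in WT and 852, 597, 719 and 640 CPM in PS19_Lsd1het (difference -0.57, SE 0.17, DESeq2 adjusted p 0.0209). Gria2, an AMPA receptor subunit, measured 784 to 2015 CPM in WT and 413 to 1041 CPM in PS19_Lsd1het and overlapped (difference -0.68, DESeq2 adjusted p 0.0236). None of the 3 was called without WT replicate 1, 3 or 4, without PS19_Lsd1het replicate 2 or without the library labelled PS19_Lsd1het replicate 3. In the other fits, 2 members were called lower without WT replicate 2, 5 without PS19_Lsd1het replicate 4 and 11 without PS19_Lsd1het replicate 1. The list median without PS19_Lsd1het replicate 2 was -0.12. Among GABAergic neuron genes, Erbb4, the neuregulin receptor of interneurons, measured 56.5, 44.5, 177 and 91.6 CPM in WT and 32.6, 27.6, 75.2 and 74.1 CPM in PS19_Lsd1het. Its groups overlapped across numbers, but each PS19_Lsd1het library was below the WT library of the same number (difference -0.76, SE 0.15, edgeR adjusted p 0.0857, DESeq2 adjusted p 3.41e-04), and it was called in all 8 DESeq2 fits that left out a library. Dcx, a microtubule protein of newborn neurons, showed the same order within each number, with 24.4, 17.4, 62.4 and 29.9 CPM in WT and 13.1, 7.72, 42.7 and 22.4 CPM in PS19_Lsd1het (difference -0.75, SE 0.17, DESeq2 adjusted p 0.00333).

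The markers of hippocampal subfields and of other brain regions were uneven across the PS19_Lsd1het libraries. The 20 cerebellar genes summed to 4985 CPM in PS19_Lsd1het replicate 2, to 169 to 205 CPM in the other 3 libraries of that group and to 229 to 489 CPM in WT. Defining cerebellar genes were near 0 elsewhere: Cbln3, a cerebellin of granule cells, measured 788 CPM in PS19_Lsd1het replicate 2, 32.0 CPM in WT replicate 2 and 0.0973 to 0.881 CPM in the other 6. Pcp2, a Purkinje cell gene, measured 172 CPM there, 7.97 CPM in WT replicate 2 and 0.292 to 0.881 CPM in the other 6. Brainstem identity genes summed to 482 CPM in PS19_Lsd1het replicate 2, 226 CPM in WT replicate 3 and 48.6 to 75.4 CPM in the other 6. Slc6a5, the glycine transporter of brainstem neurons, was called higher (DESeq2 adjusted p 0.0142) on 158 CPM in that library, against 0.0925, 2.60 and 0.121 CPM in the others of its group. In WT it measured 1.12 CPM in replicate 2 and at most 0.0927 CPM in the others, replicate 3 included. The brainstem sum of WT replicate 3 was thus not shared by this marker. Of the 24 members of that list, 8 passed the filter on low counts. CA1 pyramidal genes summed to 255 CPM in PS19_Lsd1het replicate 2, 801 to 1082 CPM in the other 3 and 918 to 1173 CPM in WT. Their list median was -0.40 with all libraries and 0.01 without that library. Dentate granule genes had medians of -0.48 and -0.22, and immediate early genes -0.35 and 0.13, with and without it. Choroid plexus genes ranged from 219 to 3382 CPM in WT and from 227 to 5251 CPM in PS19_Lsd1het, and none was called.

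**Figure D5:**
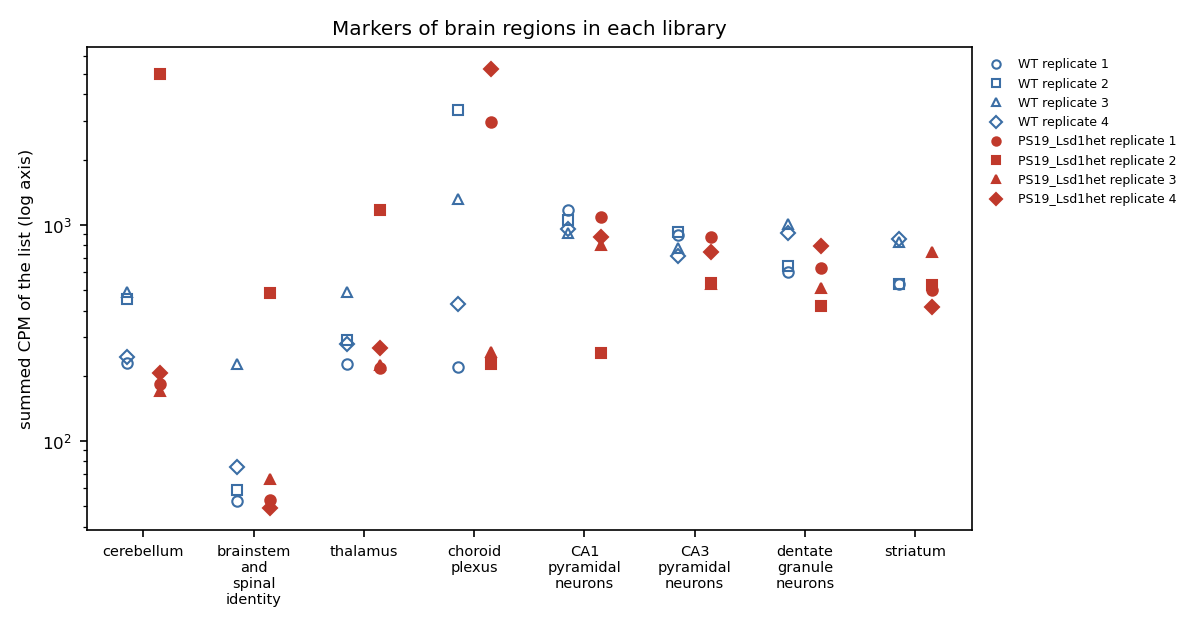
Summed CPM (log axis) of 8 regional marker lists in the 4 WT (open blue) and 4 PS19_Lsd1het (filled red) libraries, with the symbol shape giving the replicate number. PS19_Lsd1het replicate 2 is highest for cerebellum (4985), brainstem (482) and thalamus (1171) and lowest for CA1 (255).

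Lists of cell stress gave few calls. In the p53 target list 16 of 20 were higher, with a median of 0.40 and 2 called. No member was called without WT replicate 1, 3 or 4, without PS19_Lsd1het replicate 2 or without the library labelled PS19_Lsd1het replicate 3. Cdkn1a, the cell-cycle inhibitor p21, measured 6.26, 11.2, 2.82 and 4.53 CPM in WT and 11.1, 20.7, 16.2 and 15.1 CPM in PS19_Lsd1het and overlapped narrowly (difference 1.55, SE 0.52, DESeq2 adjusted p 0.039). Atf3, a stress-induced transcription factor, was the only called gene of 24 (4.17%) in the unfolded protein and integrated stress response list. It measured 0.371, 1.49, 0.487 and 0.566 CPM in WT and 2.78, 3.55, 2.78 and 3.70 CPM in PS19_Lsd1het (difference 2.21, SE 0.39, DESeq2 adjusted p 7.38e-05). It was called in all 8 DESeq2 fits that left out a library, while the call of Cdkn1a held in 2. In the heat shock list the small heat shock proteins Hspb1 (1.09) and Hspb8 (0.99) and their partner Bag3 (0.56) were called, and 10 of 15 members were lower in value. No heat shock gene was called higher without WT replicate 1, WT replicate 3 or the library labelled PS19_Lsd1het replicate 3, and 1 was called without WT replicate 4. Cholesterol synthesis genes had a median of -0.12 and none was called. Pluripotency and stem cell factors had a median of -0.19 over 8 tested genes, none called.

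Against PS19 mice with both Lsd1 copies, the same fit called few genes. edgeR called 0 genes in either direction (0.0%), with 609 at an unadjusted p under 0.05. DESeq2 called 3 higher (0.0149%) and 0 lower (0.0%). Kdm1a, the deleted gene, was thus not called in this comparison, which included the library labelled PS19_Lsd1het replicate 3. A low count of calls is therefore not a measure of the effect of the deletion. PS19 against WT gave 327 genes higher (1.63%) and 38 lower (0.189%) by DESeq2. For the leading genes the PS19 libraries are set beside the others as values, since both comparisons share the WT libraries. Itgax measured 15.9, 2.82, 3.33 and 56.1 CPM, Cst7 13.3, 0.835, 3.13 and 18.3 CPM, Gfap 3163, 632, 782 and 2852 CPM and Cd74 53.9, 8.66, 14.1 and 227 CPM in PS19 replicates 1 to 4. PS19 replicates 2 and 3 were low and 1 and 4 high in all 4 genes, and the PS19_Lsd1het values lay within the PS19 range for Itgax, Cst7, Gfap and Cd74. Differences of PS19_Lsd1het from PS19 were 0.66 (SE 0.55) for Itgax, 0.38 (SE 0.70) for Cst7 and 0.28 (SE 0.38) for Gfap, none called. The interferon list had a median of 2.05 in PS19_Lsd1het and 2.31 in PS19, each against WT, and the disease-associated microglia list 1.69 and 1.74. The synapse list had -0.29 and -0.16.

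The 3 genes higher than in PS19 were Capn11, Gm10036 and Nudc-ps1, chosen for naming after their values were seen. Capn11, a calpain protease, measured 3.66, 2.18, 3.39 and 5.33 CPM in PS19_Lsd1het, 0.068 to 0.608 CPM in PS19, 0.706 to 4.31 CPM in WT and 0.296 and 0.380 CPM in Lsd1het. It therefore differed from PS19 (DESeq2 adjusted p 0.00672) and overlapped with WT. Gm10036 measured 7.59, 7.18, 0.484 and 6.66 CPM in PS19_Lsd1het, 8.25 and 9.98 CPM in Lsd1het, 0.323 to 1.20 CPM in WT and 0.261 to 1.39 CPM in PS19. The library labelled PS19_Lsd1het replicate 3, whose Kdm1a level was in the WT range, was also in the WT range for Gm10036. Whether that library carries the deletion was not tested. Of the 31-base words in the Gm10036 transcript, 76.6% were also in transcripts of Rpl11, a ribosomal protein gene 0.522 Mb from Kdm1a. Nudc-ps1 measured 14.3, 16.2, 11.8 and 11.3 CPM in PS19_Lsd1het, 14.9 and 16.9 CPM in Lsd1het, 6.79 to 12.2 CPM in WT and 5.69 to 11.3 CPM in PS19. It shared 88.1% of such words with Nudc, which lies 3.02 Mb from Kdm1a. Both are copies whose reads cannot be told apart from those of the parent gene with certainty.

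The region around Kdm1a was examined because a deleted allele is inherited with its neighbours. Of 183 tested genes within 5 Mb of Kdm1a, 128 were higher (69.9%, against 10669 of 20122 among all genes), with a median of 0.20. DESeq2 called 15 of them higher (8.2%, against 2.64% of all genes) and 1 lower (0.546%, against 1.69%). The 15 include C1qa, C1qb, C1qc, Fgr and Cd52, which belong to the immune genes described above. Against PS19, the median of the 183 genes was 0.10 and none was called by DESeq2.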

How the data were processed

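Poly(A)-selected RNA of 23 hippocampal libraries was sequenced, and the 14 libraries at 9 months were used here. The authors deposited raw counts of reads per gene for each library; per the submitters' processing notes, reads were checked with FastQC 0.11.7, trimmed with Trimmomatic 0.36.5, aligned to GRCm38 with HISAT2 2.1.0 and counted with featureCounts 1.6.0.6, and DESeq2 2.11.40.2 is listed. The labels and notes state neither strandedness nor the annotation release used for counting. Reads of overlapping or antisense genes and of near-identical copies cannot be told apart with certainty. Of 54232 gene identifiers, 54165 matched GENCODE M21, and the other 67 held 0.0151% of reads.

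Genes were kept by edgeR's filter (minimum count 10, minimum total count 15). The main test was edgeR 4.0.16 (R 4.3.3), quasi-likelihood with TMM factors and the terms group and replicate number over 14 libraries, leaving 7 residual degrees of freedom. DESeq2 1.42.0 with the same terms was the second tool. Adjusted p-values are Benjamini-Hochberg over all genes tested. Same-numbered WT and PS19_Lsd1het libraries had correlations of deviations of 0.35 to 0.62, which is a pairing read from the data, since the labels do not say what a number shares. The named genes are the 15 largest rises and falls by edgeR among genes that DESeq2 called, that reached 1 CPM in a group and whose libraries did not overlap, leaving out predicted genes and pseudogenes, with the members of 37 lists (697 genes, 653 tested). List members that are not named are reported as counts only. The comparison and lists were chosen with earlier results of these data known. Alternatives changed the block, tool, scaling, filter, libraries fitted and each library in turn.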

Additional observations from a re-analysis of the deposited data

Results flagged for a closer look

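In 35 of 280 groups of 4 libraries, across named genes and list sums, the highest or lowest library stood further from its neighbour than Dixon's critical value allows. Chance flags about 1 in 20 groups, or 14.0 here. PS19_Lsd1het replicate 2 gave 13 of them and WT replicate 3 gave 11.

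In PS19_Lsd1het replicate 2, the summed CPM was 4985 for cerebellum (next library 205), 482 for brainstem and spinal identity (next 66.5), 1171 for thalamus (next 267), 2256 for GABAergic neurons (next 1498) and 882 for mural cells and fibroblasts (next 509). Single genes that stood high there were Fat2 at 524 CPM (next 0.879), Slc6a5 at 158 CPM (next 2.6), Syt9 at 36.4 CPM (next 8.48), Esrrb at 13.1 CPM (next 2.12) and Hspb1 at 7.03 CPM (next 3.82). Genes that stood low there were Hs3st4 at 22.5 CPM (next 99.5), Btg3 at 4.35 CPM (next 7.22) and Zbp1 at 0.435 CPM (next 1.58).

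In WT replicate 3, mitochondrially encoded genes summed to 479699 CPM (next 48098), red blood cell genes to 454 CPM (next 304), brainstem and spinal identity genes to 226 CPM (next 75.4) and reactive astrocyte genes to 466 CPM, the lowest (next 604). Meg3 measured 14864 CPM (next 6435), Celf4 1147 CPM (next 635), Hs3st4 342 CPM (next 106), Cacng4 49.2 CPM (next 28.5), Btg3 16.1 CPM (next 10.2) and Ifi44 1.07 CPM (next 0.51) there, each the highest of its group. Vwf was the lowest, at 3.99 CPM (next 13.5).

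The other libraries held fewer. WT replicate 2 was highest for Fat2 (24.7 CPM, next 0.602), Esrrb (2.87 CPM, next 1.54) and Slc6a5 (1.12 CPM, next 0.0927). WT replicate 4 was highest for Ly9 (0.485 CPM, next 0.195), Tnfsf8 (0.242 CPM, next 0) and Ccl5 (0.121 CPM, next 0). WT replicate 1 was highest for Il1rn (0.0463 CPM, next 0) and lowest for the interferon response sum (95.1 CPM, next 122). PS19_Lsd1het replicate 4 was highest for Itgax (32.4 CPM, next 13.8) and H2-Aa (39.8 CPM, next 10.7) and lowest for the oligodendrocyte and myelin sum (5764 CPM, next 6806).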

How the results depend on the processing

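The count of genes called higher and lower by edgeR (3 and 1) was 3 and 1 with DESeq2's scaling and with mitochondrial genes left out. It was 1 and 0 without the replicate block, 72 and 35 with no filter on low counts, 19 and 0 when only WT and PS19_Lsd1het were fitted, 1 and 0 with replicates 1 and 2 against 3 and 4 as a 2-level covariate in place of the block, and 0 and 0 within replicates 1 and 2 and within replicates 3 and 4. Leaving out each library in turn gave 0 to 6 higher and 0 to 1 lower. DESeq2 called 532 and 340 with the block and 106 and 4 without it. With the block, it called 965 and 833 without PS19_Lsd1het replicate 1, 382 and 334 without replicate 2, 224 and 155 without the library labelled replicate 3, and 552 and 333 without replicate 4. It called 183 and 97, 581 and 287, 235 and 75, and 233 and 184 without WT replicates 1 to 4, 27 and 30 within replicates 1 and 2, and 180 and 108 within replicates 3 and 4. The fits that left out a library by DESeq2, other than PS19_Lsd1het replicate 2, and the DESeq2 fits within replicate numbers were chosen after seeing the data. Against PS19, edgeR called 0 and 0 and DESeq2 3 and 0. The causes of these changes in count were not tested. Over 115 named genes and these settings, 2475 of 3196 values kept their direction and side of the threshold, 649 newly passed, 43 no longer passed, 29 uncalled values changed sign and 0 called values reversed. List medians moved by more than the spread between libraries in 97 of 1035 values. Of the 4 same-numbered pairs, 2 correlated best with their own number. Levels near 0 CPM in WT rest on single reads and limit the precision of the largest fold changes.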

Other observations

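Markers of neighbouring regions and of CA3 gave few calls. Tshz2, a transcription factor in the neocortex list, measured 25.8, 10.9, 62.6 and 24.4 CPM in WT and 11.0, 7.83, 16.7 and 8.18 CPM in PS19_Lsd1het (difference -1.33, SE 0.34, DESeq2 adjusted p 0.0077). No member of that list was called lower without WT replicate 3 or without WT replicate 4. In the CA3 list, Homer3, a postsynaptic scaffold also made by Purkinje cells, was called higher (difference 0.95), with 184 CPM in PS19_Lsd1het replicate 2 against 22.1 to 56.4 CPM in the others of its group, and Trps1 was called lower (difference -0.54). Without PS19_Lsd1het replicate 2, 1 CA3 member was still called higher. None was called higher without WT replicate 2, 3 or 4 or the library labelled PS19_Lsd1het replicate 3. CA3 members were called lower only without PS19_Lsd1het replicate 1 (2 members) or replicate 2 (1 member). How far the differences of Tshz2, Homer3 and Trps1 reflect the tissue taken at dissection was not tested.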
